A study of Mus musculus with 2 samples.

Results

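Nitric oxide and cGMP signalling is described here through 9 genes, taken by symbol from the 32285 genes of the count files. They encode the subunits of soluble guanylyl cyclase (*Gucy1a1*, *Gucy1b1* and *Gucy1a2*), the cGMP-dependent protein kinases (*Prkg1* and *Prkg2*), the cGMP-splitting phosphodiesterase *Pde5a*, and the natriuretic peptide receptors (*Npr1*, *Npr2* and *Npr3*). Nitric oxide diffuses into neighbouring cells and binds the heme of soluble guanylyl cyclase. This dimer of an alpha and a beta subunit makes cGMP from GTP. Natriuretic peptides act from outside, and their receptors *Npr1* and *Npr2* are themselves guanylyl cyclases. cGMP activates cGMP-dependent kinase, which relaxes smooth muscle, and *Pde5a* splits cGMP and so ends the signal. In the lung the pathway lowers the tone of the pulmonary vessels, and it is the target of inhaled nitric oxide, of *Pde5a* inhibitors and of drugs that stimulate soluble guanylyl cyclase.

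The lungs of 2 mice at postnatal day 14 gave 1 single-cell library each, and both mice were *Gli1 creERT/+* with *Hhip flox/flox*. The control mouse was given oil and the *Gli1 HHIPCKO* mouse was given tamoxifen, which lets the Cre recombinase of *Gli1*-expressing cells delete *Hhip*, the gene of a protein that binds and holds back Hedgehog ligands. Only cells that expressed *Gli1* when tamoxifen was given could recombine, and only the *Gli1 HHIPCKO* mouse had tamoxifen, so an effect of tamoxifen and of the deletion cannot be told apart. The stromal cells were sorted without CD31, CD45 and CD326, and the epithelial cells with CD326 and without CD31 and CD45. Both were mixed before loading in a ratio set by the authors, with more stromal than epithelial cells. This sort removes endothelial cells, which make most nitric oxide of a vessel wall, and immune cells. With 1 mouse per group there were no replicates, so no test was made, and each interval below is a 95% interval for counting error only.

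The control library held 43291709 unique molecular identifiers (UMIs) in 10999 cells, and 10917 cells with a median of 3537 UMIs passed the filters. The *Gli1 HHIPCKO* library held 52338969 UMIs in 12350 cells, and 12115 cells with a median of 3774 UMIs passed. The libraries shared 193 cell barcodes. Clusters were named after marker genes, and the names are written with "-like" since they rest on markers alone. The control and the *Gli1 HHIPCKO* library held 1206 and 929 alveolar myofibroblast-like (ALMF-like) cells, 1142 and 1157 ductal myofibroblast-like (DMF-like) cells, and 151 and 224 peribronchial or airway smooth muscle-like cells. In the same order there were 404 and 443 vascular smooth muscle-like, 465 and 805 pericyte-like, 647 and 1740 alveolar fibroblast-like, 354 and 447 adventitial fibroblast-like, and 294 and 295 mesothelial-like cells. Alveolar type 2-like (AT2-like) cells numbered 2960 and 2800, ciliated-like cells 254 and 125, and red cell-like cells 217 and 194. Clusters with markers of several classes, with few cells or without a clear class stayed unnamed and held 24.0% of control cells and 23.6% of *Gli1 HHIPCKO* cells. Endothelial-like, immune-like, club-like and Schwann-like cells had fewer than 50 cells in at least 1 library and were not compared.

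The libraries differed in *Hhip* and in sex-linked RNA. *Hhip* (ENSMUSG00000064325; chr8:79965851-80058006, minus strand), summed over a class and divided by all UMIs of the class, was at 2304 in control against 454 in *Gli1 HHIPCKO* DMF-like cells on the counts-per-million scale (CPM), and the log2 ratio of *Gli1 HHIPCKO* over control was −2.34 (−2.42 to −2.27). In ALMF-like cells it was at 284 and 196 CPM, log2 ratio −0.54 (−0.69 to −0.39), and in vascular smooth muscle-like and pericyte-like cells the log2 ratios were −2.23 and −1.39. Where the remaining UMIs lie relative to the floxed exon is not known from the counts. Over all kept cells *Hhip* was at 332 CPM in control against 89.3 CPM in *Gli1 HHIPCKO*. The part of background RNA in the vascular smooth muscle-like and pericyte-like ratios was not tested. *Xist*, the RNA that silences an X chromosome in female cells, had 12 UMIs in the whole control library and 14062 in *Gli1 HHIPCKO*, in 0.11% and 56.7% of the cells. The sex of the mice and the deletion therefore cannot be told apart in any value below.

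ALMF-like and DMF-like cells also fell into clusters of nearly 1 library each. Of the ALMF-like cells, 1 cluster held 1187 control and 74 *Gli1 HHIPCKO* cells and the other 19 and 855, and of the DMF-like cells, 1 cluster held 1131 and 27 and the other 11 and 1130. The pericyte-like clusters held 432 and 726 and 33 and 79 cells, and the vascular smooth muscle-like clusters 261 and 259 and 143 and 184. Ratios in pericyte-like and vascular smooth muscle-like cells thus compared clusters that both libraries filled, and ratios in ALMF-like and DMF-like cells compared different clusters. For this reason values within clusters are given for some of the members. They were not computed for the pathway genes beside the members, whose ALMF-like and DMF-like ratios compare different clusters as well.

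Soluble guanylyl cyclase and *Pde5a* RNA was highest in pericyte-like cells in both libraries, *Prkg2* and *Npr2* in alveolar fibroblast-like cells and *Npr1* in mesothelial-like cells. Pericyte-like cells had the highest level of 6 of the 9 members, *Gucy1a1*, *Gucy1b1*, *Gucy1a2*, *Prkg1*, *Pde5a* and *Npr3*, in each library. Between the libraries, *Gucy1a1* and *Gucy1b1* were higher in *Gli1 HHIPCKO* in vascular smooth muscle-like cells and, by less, in pericyte-like cells, and *Gucy1a1* and *Pde5a* were lower in *Gli1 HHIPCKO* in the ALMF-like cells as 1 class. None of these differences reached 2-fold.

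**Figure D1:**
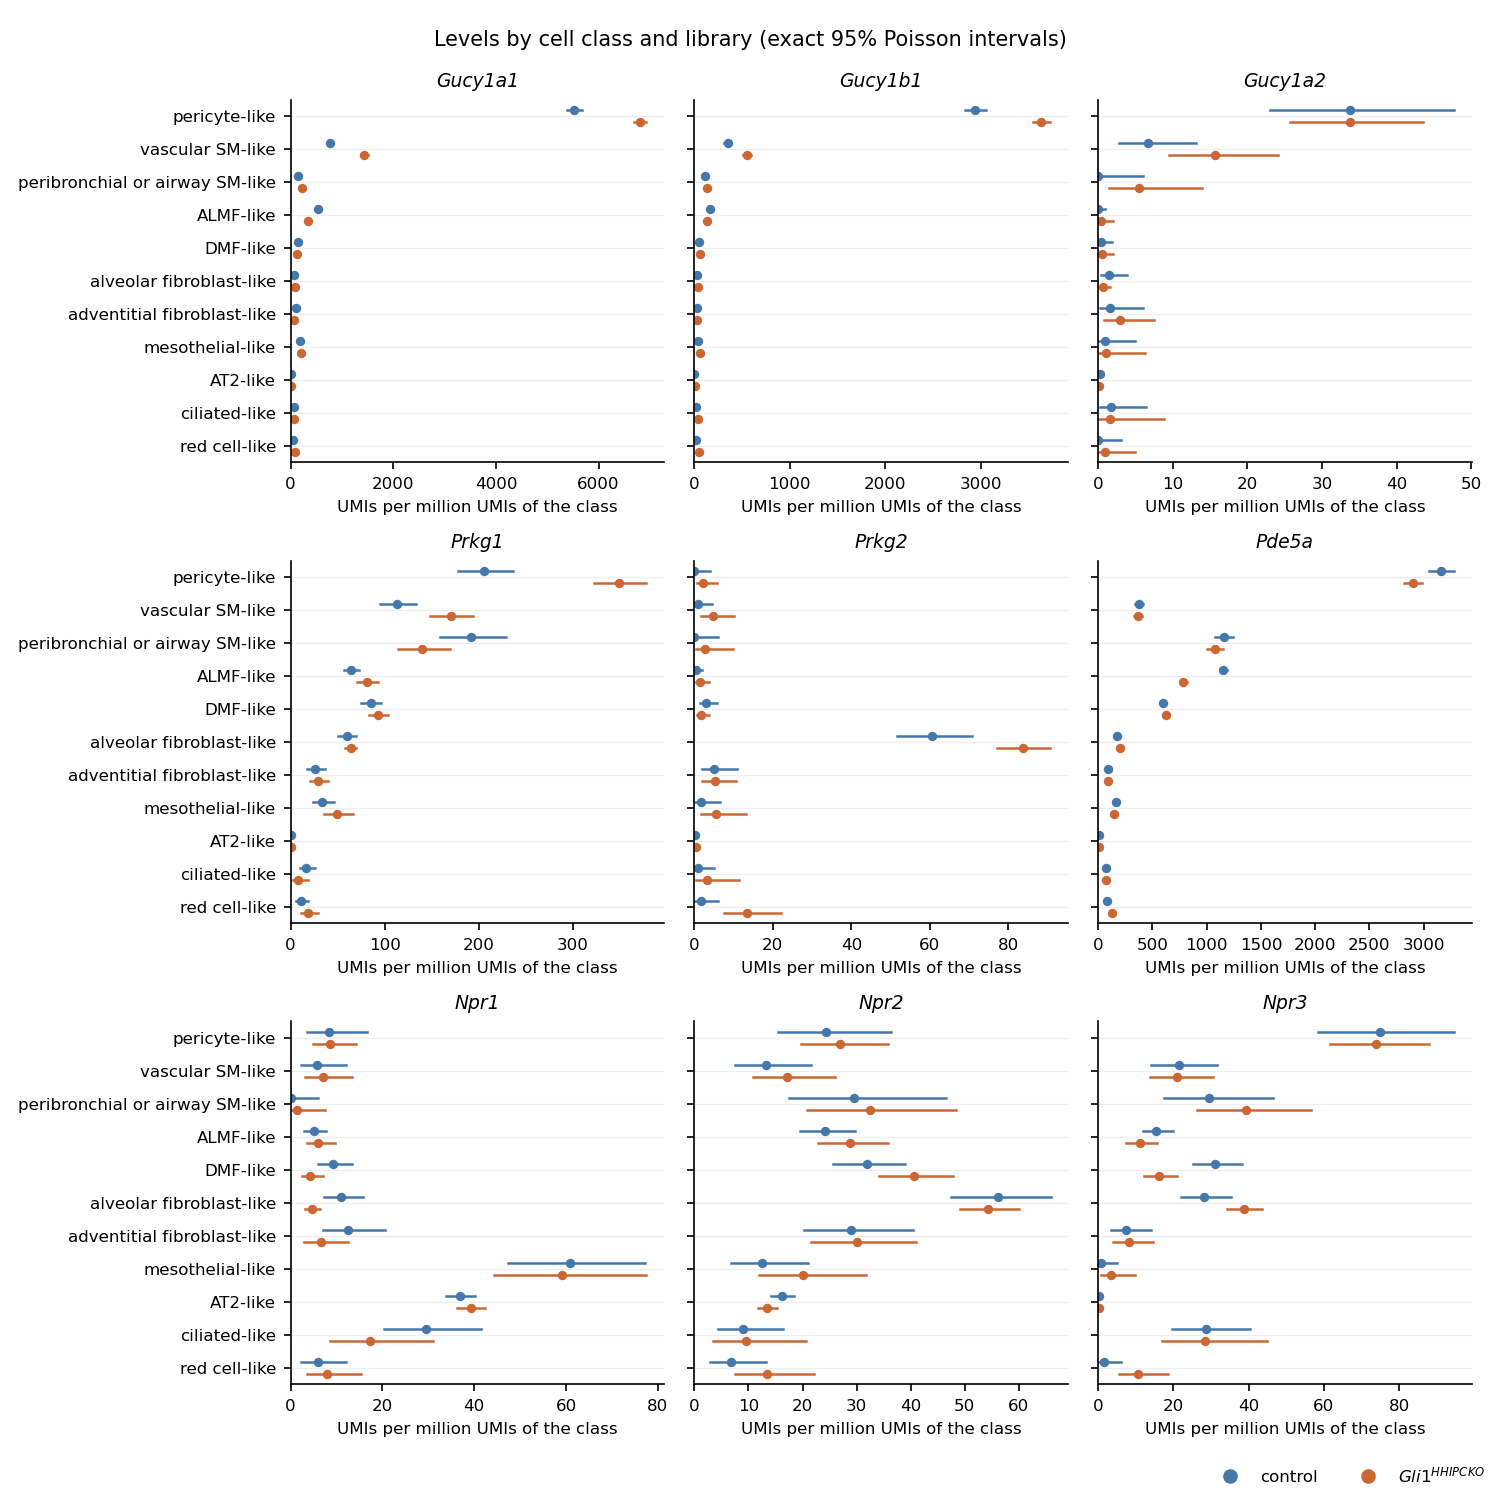
Level of each member in CPM of the class (axes from 0, 1 scale per gene) in 11 cell classes (SM, smooth muscle), with 1 point per library and lines for exact Poisson 95% intervals. Pericyte-like cells stand highest for 6 of the 9 members in both libraries, and AT2-like cells lowest for *Gucy1a1*, *Gucy1b1*, *Prkg1* and *Pde5a*.

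A member counted as measured in a class with at least 50 UMIs over both libraries and as called with at least a 2-fold difference, and the share of all measured genes that were called is the background. In pericyte-like cells 0 of 7 measured members were called, beside 2.86% of 7422 genes, and in vascular smooth muscle-like cells 0 of 5, beside 3.08% of 6939. ALMF-like cells had 0 of 6 beside 5.46% of 9737, DMF-like cells 0 of 6 beside 4.79% of 9747, and peribronchial or airway smooth muscle-like cells 0 of 4 beside 5.05% of 4810. Adventitial fibroblast-like cells had 0 of 5 beside 3.55% of 6403, mesothelial-like cells 0 of 5 beside 3.36% of 6106, and ciliated-like cells 0 of 3 beside 2.3% of 6039. In these 8 classes no measured member was thus 2-fold apart.

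A single member was called in each of 3 classes. In alveolar fibroblast-like cells it was 1 of 8, beside 4.3% of 10323 genes: *Npr1* was lower in *Gli1 HHIPCKO*, from 29 UMIs in control and 33 in *Gli1 HHIPCKO*. In AT2-like cells it was 1 of 5, beside 2.5% of 10981: *Gucy1a1* was higher in *Gli1 HHIPCKO*, from 59 and 135 UMIs. In red cell-like cells it was 1 of 3, beside 24.1% of 2975: *Gucy1b1* was higher in *Gli1 HHIPCKO*, from 24 and 51 UMIs. The median log2 ratio of all measured genes in red cell-like cells was 0.62, and that of the 3 members 0.91, so genes as a whole stood higher in *Gli1 HHIPCKO* there. The AT2-like call was lost under 4 alternatives (the stricter cell filter, members and pathway genes kept in clustering, immediate early genes held out, naming by best score), with log2 ratios from 0.48 to 2.49 over all 10. Of the compared classes, AT2-like cells had the lowest *Gucy1a1* level in both libraries, below that of red cell-like cells. Whether the UMIs of this call are background RNA was not tested. The red cell-like call was lost under 4 (the stricter filter, separate clustering, median-of-ratios scaling, thinning).

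The median log2 ratio of the 5 measured members was 0.59 in vascular smooth muscle-like cells, beside 0.04 for all measured genes, and from 0.48 to 0.89 over the 12 alternatives, in which 4 to 7 members were measured. The members' median also kept its sign in alveolar fibroblast-like cells, at 0.31 beside 0.02 for all measured genes, with a range from 0.03 to 0.49. In AT2-like cells it was 0.29 beside 0.00, with a range from 0.20 to 2.53. In red cell-like cells it was 0.91 beside 0.62, with a range from 0.28 to 1.86. In the other compared classes, among them pericyte-like, ALMF-like and DMF-like cells, its sign turned under at least 1 alternative. No value is given for these.

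*Gucy1a1* (ENSMUSG00000033910; chr3:82092427-82145789, minus strand) encodes the main alpha subunit of soluble guanylyl cyclase. In pericyte-like cells it was at 5529.5 (5381 to 5681) CPM in control against 6805 (6684 to 6929) CPM in *Gli1 HHIPCKO*, log2 ratio 0.30 (0.25 to 0.35). Vascular smooth muscle-like cells followed with 773 (724 to 825) CPM in control against 1439.6 (1375 to 1507) CPM in *Gli1 HHIPCKO*, log2 ratio 0.90 (0.78 to 1.01). ALMF-like cells came next with 526 (503 to 549) and 348 (327 to 371) CPM, log2 ratio −0.59 (−0.71 to −0.48). The intervals of these 3 classes did not overlap in either library, so the order pericyte-like, vascular smooth muscle-like, ALMF-like held in both mice.

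Lower levels of *Gucy1a1* were found in mesothelial-like (179 and 202 CPM in control and *Gli1 HHIPCKO*), DMF-like (153 and 129 CPM), peribronchial or airway smooth muscle-like (144 and 215 CPM) and adventitial fibroblast-like cells (98.7 and 70.6 CPM). In control the intervals of neighbours among these 4 classes overlapped. The peribronchial or airway smooth muscle-like cells had a log2 ratio of 0.58 (0.20 to 0.97) and the adventitial fibroblast-like cells one of −0.48 (−0.89 to −0.08), whose sign turned under 3 alternatives, with a range from −0.55 to 0.66. Airway and vascular smooth muscle are the contractile cells on which nitric oxide acts. In control the peribronchial or airway smooth muscle-like cells had 144 CPM where the vascular smooth muscle-like cells had 773. The vascular class also held RNA of the airway and pericyte marker lists, as given below. It is thus no pure type, and the part of these markers in the difference was not tested. Adventitial fibroblast-like cells, alveolar fibroblast-like cells (70.1 and 91 CPM) and ciliated-like cells (60.0 and 66.4 CPM) were no higher, beyond the intervals, than red cell-like cells (45.3 and 84.7 CPM) in *Gli1 HHIPCKO*. In control the adventitial and alveolar fibroblast-like cells stood above the red cell-like cells beyond the intervals, and the ciliated-like cells did not. AT2-like cells had the lowest level, 4.01 and 8.06 CPM.

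*Gucy1b1* (ENSMUSG00000028005; chr3:82032006-82074689, minus strand) encodes the beta subunit, without which neither alpha subunit forms an active enzyme. It was at 2942 (2834 to 3053) CPM in control against 3633 (3545 to 3724) CPM in *Gli1 HHIPCKO* pericyte-like cells, log2 ratio 0.30 (0.24 to 0.37). In vascular smooth muscle-like cells it was at 348 (315 to 383) and 554 (514 to 597) CPM, log2 ratio 0.67 (0.50 to 0.85). The beta subunit thus had the same top classes as *Gucy1a1*, and in both classes both subunits were higher in *Gli1 HHIPCKO*. ALMF-like cells followed with 159.5 and 135 CPM, log2 ratio −0.24 (−0.43 to −0.05), and peribronchial or airway smooth muscle-like cells with 106 and 135 CPM, log2 ratio 0.35 (−0.12 to 0.82). In *Gli1 HHIPCKO* the intervals of these classes overlapped. From DMF-like (52.8 and 57.9 CPM) and mesothelial-like cells (34.9 and 55.9 CPM) downward, neighbours in the order overlapped down to AT2-like cells, which lay apart at 1.56 and 2.81 CPM. Adventitial fibroblast-like cells had 29 and 27.9 CPM, alveolar fibroblast-like cells 22.7 and 36.9, ciliated-like cells 19.7 and 36.3, and red cell-like cells 20.1 and 45.5.

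*Gucy1a2* (ENSMUSG00000041624; chr9:3532778-3894736, plus strand) encodes the other alpha subunit and was sparse. It was measured in pericyte-like cells alone, at 33.8 (23.1 to 47.7) CPM in control against 33.8 (25.7 to 43.6) CPM in *Gli1 HHIPCKO*, log2 ratio 0.00 (−0.64 to 0.67). Vascular smooth muscle-like cells had 8 and 20 UMIs, or 6.64 and 15.6 CPM, and no other compared class had more than 5 UMIs in a library. In ALMF-like cells, control had 0 UMIs, which allows up to 0.788 CPM, and *Gli1 HHIPCKO* had 1. The alternative alpha subunit therefore had its highest level in the same class as *Gucy1a1*, and its intervals there did not overlap those of the other compared classes.

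The higher *Gucy1a1* level of *Gli1 HHIPCKO* vascular smooth muscle-like cells appeared in both of their clusters. In the cluster of 261 control and 259 *Gli1 HHIPCKO* cells it was at 928 (859 to 1002) CPM in control against 1920.0 (1821 to 2023) CPM in *Gli1 HHIPCKO*, and in the cluster of 143 and 184 cells at 551 (488 to 620.4) CPM in control against 809 (736 to 888) CPM in *Gli1 HHIPCKO*. *Gucy1b1* was at 361 and 628 CPM in the former and 329 and 458 CPM in the latter. Both subunits were therefore higher in *Gli1 HHIPCKO* in each cluster. In the large pericyte-like cluster, *Gucy1a1* was at 6215 and 7869.9 CPM and *Gucy1b1* at 3285 and 4202 CPM in control and *Gli1 HHIPCKO*. The small pericyte-like cluster had a lower level of both, 2425 and 3076 CPM and 1387 and 1642 CPM, with the same sign between libraries. Over the 10 alternatives that recompute ratios, the log2 ratio of *Gucy1a1* ran from 0.27 to 0.36 in pericyte-like and from 0.74 to 1.09 in vascular smooth muscle-like cells, reported value included. The latter passed 2-fold under 2 of them, thinning and, chosen after seeing the data, immediate early genes held out of clustering.

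Markers of other classes moved with these ratios. In vascular smooth muscle-like cells the list of 10 pericyte markers, which shares *Notch3* with the vascular smooth muscle list, summed to 1897 CPM in control against 2668 CPM in *Gli1 HHIPCKO*, with 7 and 9 markers in at least 10% of the cells and none at 0, and its most abundant marker was *Kcnk3* at 470.4 CPM in control and *Cox4i2* at 807 CPM in *Gli1 HHIPCKO*. The 9 vascular smooth muscle markers themselves summed to 3509 and 3603 CPM, with 7 and 7 in at least 10% of the cells, 0 and 1 at 0, and *Myh11* the most abundant. The 10 markers of airway smooth muscle-like cells, which had less *Gucy1a1*, summed to 7208 and 4731 CPM, with 7 and 7 in at least 10% of the cells, none at 0 and *Actc1* the most abundant (3668 and 2298 CPM). In both libraries the airway list thus summed above that of the class itself. The 5 red cell markers summed to 432 and 2428 CPM there and the 8 AT2 markers to 2584 and 1551 CPM, none at 0, with 2 and 2 and with 4 and 2 of them in at least 10% of the cells, and with *Hbb-bs* and *Sftpc* the most abundant. In pericyte-like cells the 10 pericyte markers summed to 12886 and 11398 CPM, all 10 of them in at least 10% of the cells of both libraries, and the 5 red cell markers to 708 and 12142 CPM, mostly *Hbb-bs* at 553 and 8865 CPM. The part of these markers in the results was not tested.

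In ALMF-like cells, the sign of the *Gucy1a1* ratio depended on how cells were grouped. Within the cluster of mostly control cells, *Gucy1a1* was at 529 (506 to 553) CPM in control against 697 (590.0 to 818) CPM in *Gli1 HHIPCKO*, and within the cluster of mostly *Gli1 HHIPCKO* cells at 277 (151 to 464) CPM in control against 319 (298 to 342) CPM in *Gli1 HHIPCKO*. In each cluster the *Gli1 HHIPCKO* cells thus had the higher value, with overlapping intervals in the latter, whereas over both clusters the *Gli1 HHIPCKO* cells had the lower one, and the clusters themselves differed by more than the libraries within them. *Gucy1b1* was at 159 and 302 CPM in the former cluster and 198 and 122 CPM in the latter. At a clustering resolution of 0.5 the log2 ratio of *Gucy1a1* in ALMF-like cells was −0.03 and that of *Gucy1b1* 0.31. Other markers moved here too: the 11 alveolar fibroblast markers summed to 319 CPM in control against 1676 CPM in *Gli1 HHIPCKO*, with 2 and 5 of them in at least 10% of the cells, the 11 DMF markers to 1968 and 3596 CPM, with 9 and 10, and the 10 pericyte markers to 363 and 300.3 CPM, with 3 and 2. None of these markers was at 0. The most abundant were *Mfap4* at 189 and 1114 CPM, *Net1* (control) and *Wnt5a* (*Gli1 HHIPCKO*) of the DMF list, and *Kcnk3* at 196 and 142 CPM, and their part in the result was not tested.

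**Figure D2:**
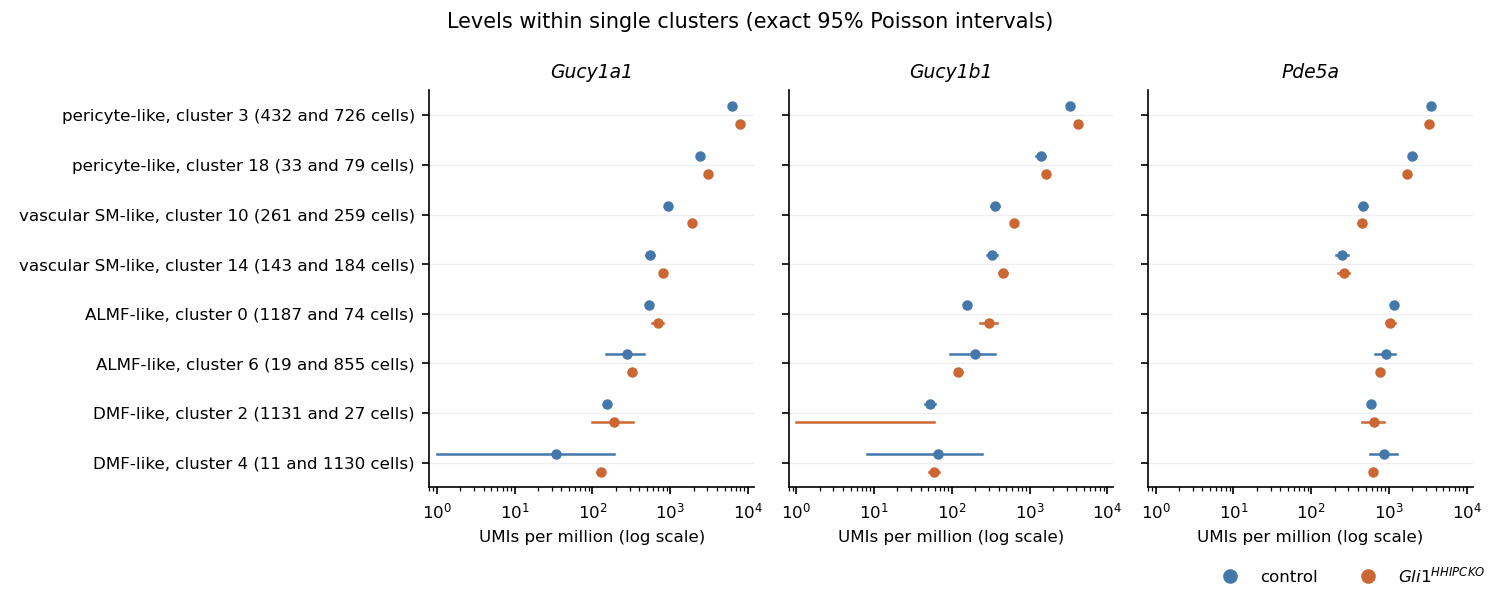
Level of *Gucy1a1*, *Gucy1b1* and *Pde5a* in CPM (log axis) within the clusters of 4 classes (SM, smooth muscle), with 1 point per library, exact Poisson 95% intervals drawn from 1 CPM upward, and no point at 0 UMIs. *Gucy1a1* was higher in the *Gli1 HHIPCKO* cells of both vascular smooth muscle-like clusters, at 1920.0 and 809 CPM.

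*Prkg1* (ENSMUSG00000052920; chr19:30564489-31765033, minus strand) encodes the cGMP-dependent kinase of smooth muscle. Its level was 206 (178 to 237) CPM in control against 349 (322 to 378) CPM in *Gli1 HHIPCKO* pericyte-like cells, log2 ratio 0.76 (0.53 to 1.00). Peribronchial or airway smooth muscle-like cells had 191 (158 to 229) and 139.6 (114 to 169) CPM, log2 ratio −0.46 (−0.85 to −0.06). The intervals of these classes overlapped in control and not in *Gli1 HHIPCKO*. Vascular smooth muscle-like cells had 113 and 170.0 CPM, log2 ratio 0.59 (0.28 to 0.91), and DMF-like cells had 85 and 92.8 CPM, log2 ratio 0.13 (−0.12 to 0.37). ALMF-like cells had 64.4 and 81.2 CPM, log2 ratio 0.34 (0.07 to 0.60). The kinase was thus spread over contractile and fibroblast classes more evenly than the cyclase subunits. As a mean over cells in place of a sum, its highest control level was in the peribronchial or airway smooth muscle-like class. Alveolar fibroblast-like cells had 59.5 and 63.8 CPM, mesothelial-like cells 33.1 and 49.2, and adventitial fibroblast-like cells 25.7 and 29.4. It was not measured in AT2-like, ciliated-like and red cell-like cells, where at most 21 UMIs were counted in a library.

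In peribronchial or airway smooth muscle-like cells, where *Prkg1* was lower in *Gli1 HHIPCKO*, the 10 markers of the class summed to 18498 CPM in control against 6551 CPM in *Gli1 HHIPCKO*, all 10 of them in at least 10% of the cells of both libraries, with *Actc1* the most abundant at 10147.5 and 1809 CPM. The 11 DMF markers summed to 5792 and 6673 CPM there, all 11 of them in at least 10% of the cells of both libraries, with *Aspn* the most abundant (2304 and 2665 CPM), so in *Gli1 HHIPCKO* this list summed above that of the class itself. The class thus held RNA of both lists, DMF-like cells had less *Prkg1*, and the part of these markers in the result was not tested. Within the large pericyte-like cluster *Prkg1* was at 227 (194 to 263) CPM in control against 397 (364 to 432) CPM in *Gli1 HHIPCKO* and within the small one at 111 and 183 CPM. The pericyte-like ratio ran from 0.72 to 0.92 over the alternatives and the airway ratio from −0.78 to −0.43. Both signs held under each of the 10 alternatives.

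*Prkg2* (ENSMUSG00000029334; chr5:98929773-99037351, minus strand) encodes the membrane-bound cGMP-dependent kinase. It was at 60.6 (51.6 to 70.8) CPM in control against 83.7 (77.1 to 90.6) CPM in *Gli1 HHIPCKO* alveolar fibroblast-like cells, log2 ratio 0.46 (0.21 to 0.73). No other compared class had more than 15 *Prkg2* UMIs in a library, whereas *Prkg1* was measured in all stromal classes. Alveolar fibroblast-like cells held both kinases. In control and *Gli1 HHIPCKO* they had 157 and 458 *Prkg1* UMIs beside 160 and 601 *Prkg2* UMIs. In pericyte-like cells, control had 0 *Prkg2* UMIs, which allows up to 3.16 CPM, and *Gli1 HHIPCKO* had 4. The alveolar fibroblast-like cells formed 3 clusters, of 447 and 771, 155 and 789, and 45 and 180 cells in control and *Gli1 HHIPCKO*, and *Prkg2* was at 45.5 and 65.8, 114 and 117 and 46.5 and 47.8 CPM in them. In the cluster with the highest level, that of 155 and 789 cells, the intervals of the libraries overlapped, and *Gli1 HHIPCKO* had the larger share of its cells there. The log2 ratio of the class ran from 0.05 to 0.69 over the alternatives. In this class the 11 alveolar fibroblast markers summed to 24279 and 30208 CPM (11 and 11 in at least 10% of the cells, *Mfap4* the most abundant), the 10 adventitial markers to 4978 and 2856 CPM (8 and 7, *Clec3b*) and the 5 red cell markers to 346 and 1765 CPM (2 and 2, *Hbb-bs*). None was at 0, and their part in the result was not tested.

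*Pde5a* (ENSMUSG00000053965; chr3:122728947-122859374, plus strand) encodes the phosphodiesterase that sildenafil inhibits. It was at 3162 (3050.2 to 3278) CPM in control against 2899 (2820.1 to 2980.4) CPM in *Gli1 HHIPCKO* pericyte-like cells, log2 ratio −0.13 (−0.19 to −0.06). Peribronchial or airway smooth muscle-like cells had 1157 and 1076 CPM, log2 ratio −0.11 (−0.25 to 0.04), and DMF-like cells 598 and 629 CPM, log2 ratio 0.07 (−0.02 to 0.16). The enzyme that ends the signal was therefore high in pericyte-like cells along with the enzyme that starts it. ALMF-like cells had 1154 (1120.3 to 1189) CPM in control against 785 (753 to 819) CPM in *Gli1 HHIPCKO*, log2 ratio −0.56 (−0.63 to −0.48). In vascular smooth muscle-like cells *Pde5a* was at 377 and 367 CPM, log2 ratio −0.04 (−0.23 to 0.15). Where *Gucy1a1* and *Gucy1b1* were higher in *Gli1 HHIPCKO* vascular smooth muscle-like cells, the interval of the *Pde5a* ratio held 0.

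The order of classes for *Pde5a* differed from that of the cyclase. ALMF-like, DMF-like and peribronchial or airway smooth muscle-like cells stood above vascular smooth muscle-like cells in both libraries for *Pde5a*, beyond the intervals, and below them for *Gucy1a1*. Alveolar fibroblast-like cells had 170.1 and 203 CPM of *Pde5a*, log2 ratio 0.25 (0.10 to 0.41), whose sign turned under 3 alternatives, with a range from −0.28 to 0.52. Mesothelial-like cells had 163 and 151 CPM, adventitial fibroblast-like cells 88.7 and 86.7, and ciliated-like cells 76.1 and 71.1. Red cell-like cells had 81.3 and 127 CPM and AT2-like cells 7.21 and 8.84, and the adventitial and ciliated values overlapped the red cell-like value in control. In *Gli1 HHIPCKO* both were below it and the mesothelial value overlapped it.

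Within the ALMF-like clusters the difference in *Pde5a* was smaller than over the class. It was at 1157 (1123 to 1192) CPM in control against 1046 (914 to 1192) CPM in *Gli1 HHIPCKO* in the cluster of mostly control cells and at 909 (666 to 1213) CPM in control against 764 (731 to 798) CPM in *Gli1 HHIPCKO* in the cluster of mostly *Gli1 HHIPCKO* cells. In each cluster the *Gli1 HHIPCKO* value was lower and the intervals of the libraries overlapped. At a clustering resolution of 0.5 the log2 ratio of the class was −0.16. The marker lists given for *Gucy1a1* in ALMF-like cells moved with this result as well, and their part in it was not tested.

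*Npr1* (ENSMUSG00000027931; chr3:90450591-90465866, minus strand) encodes the receptor for atrial and brain natriuretic peptide. Mesothelial-like cells had the highest level, 60.8 (47.3 to 77.1) CPM in control against 59.2 (44.4 to 77.5) CPM in *Gli1 HHIPCKO*, log2 ratio −0.04 (−0.59 to 0.50). AT2-like cells, with 36.9 and 39.3 CPM and a log2 ratio of 0.09 (−0.08 to 0.26), followed. A natriuretic peptide receptor thus had its RNA in epithelial cells in which the soluble cyclase subunits were nearly missing. Where other clustering or naming brought endothelial-like cells to 50 per library, which was so in 3 alternatives, their *Npr1* level was above that of mesothelial-like cells. Alveolar fibroblast-like cells had 11 and 4.59 CPM, log2 ratio −1.26 (−2.02 to −0.49). These values, the called difference, lie near those of red cell-like cells, 5.87 and 8.03 CPM. Under 6 of the alternatives *Npr1* was not called in this class, where 7 members in place of 8 were then measured. Its log2 ratio ran from −1.68 to −0.96 and was below −1 in 5 of these 6, so there the call ended on the UMI minimum and not on a smaller difference. The 8 AT2 markers, in cells where *Npr1* was higher, summed to 1839.7 CPM in control against 1125.5 CPM in *Gli1 HHIPCKO* alveolar fibroblast-like cells, with 4 and 2 of them in at least 10% of the cells, none at 0 and *Sftpc* the most abundant (1637 and 943 CPM), and their part in the result was not tested.

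*Npr2* (ENSMUSG00000028469; chr4:43631935-43651244, plus strand) encodes the receptor for C-type natriuretic peptide. It was at 56.1 (47.4 to 65.9) CPM in control against 54.3 (49 to 60.0) CPM in *Gli1 HHIPCKO* alveolar fibroblast-like cells, log2 ratio −0.05 (−0.32 to 0.24). DMF-like cells had 31.8 and 40.6 CPM, log2 ratio 0.35 (−0.04 to 0.74). Adventitial fibroblast-like (29 and 30.1 CPM), ALMF-like (24.2 and 28.9 CPM) and pericyte-like cells (24.3 and 26.9 CPM) overlapped with each other. The receptor was thus found at low levels across the stroma, above all in the class that also held *Prkg2*. AT2-like cells had 16.2 and 13.4 CPM, log2 ratio −0.28 (−0.55 to −0.01).

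*Npr3* (ENSMUSG00000022206; chr15:11839896-11907287, minus strand) encodes the receptor that mainly takes up and clears natriuretic peptides. It was at 74.9 (58.5 to 94.5) CPM in control against 73.9 (61.7 to 87.8) CPM in *Gli1 HHIPCKO* pericyte-like cells, log2 ratio −0.02 (−0.45 to 0.42). DMF-like cells had 31.2 (25.1 to 38.2) and 16.2 (12.2 to 21) CPM, from 92 and 57 UMIs, log2 ratio −0.95 (−1.45 to −0.45). This was the lowest ratio of a measured member outside the called ones. It ran from −1.04 to −0.85 over the alternatives, past 2-fold in 2 of them. The DMF-like clusters were nearly of 1 library each, so this value sets 31.5 CPM in 1131 control cells of a cluster against 16.2 CPM in 1130 *Gli1 HHIPCKO* cells of another. In DMF-like cells the 9 vascular smooth muscle markers summed to 315 and 791 CPM (2 and 3 in at least 10% of the cells, 2 and 1 at 0, *Myh11* the most abundant), the 10 airway markers to 651 and 1184 CPM (1 and 7, *Des*), the 8 AT2 markers to 2909.6 and 1581 CPM (4 and 4, *Sftpc*) and the 5 red cell markers to 529.6 and 1451 CPM (2 and 2, *Hbb-bs*). None of the last 3 lists had a marker at 0, and the part of these markers in the result was not tested. Alveolar fibroblast-like cells had 28 and 38.7 CPM, log2 ratio 0.46 (0.09 to 0.85), ALMF-like cells 15.5 and 11 CPM, and vascular smooth muscle-like cells 21.6 and 21.1 CPM. Ciliated-like cells had 28.6 and 28.4 CPM, on 32 and 18 UMIs.

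**Figure D3:**
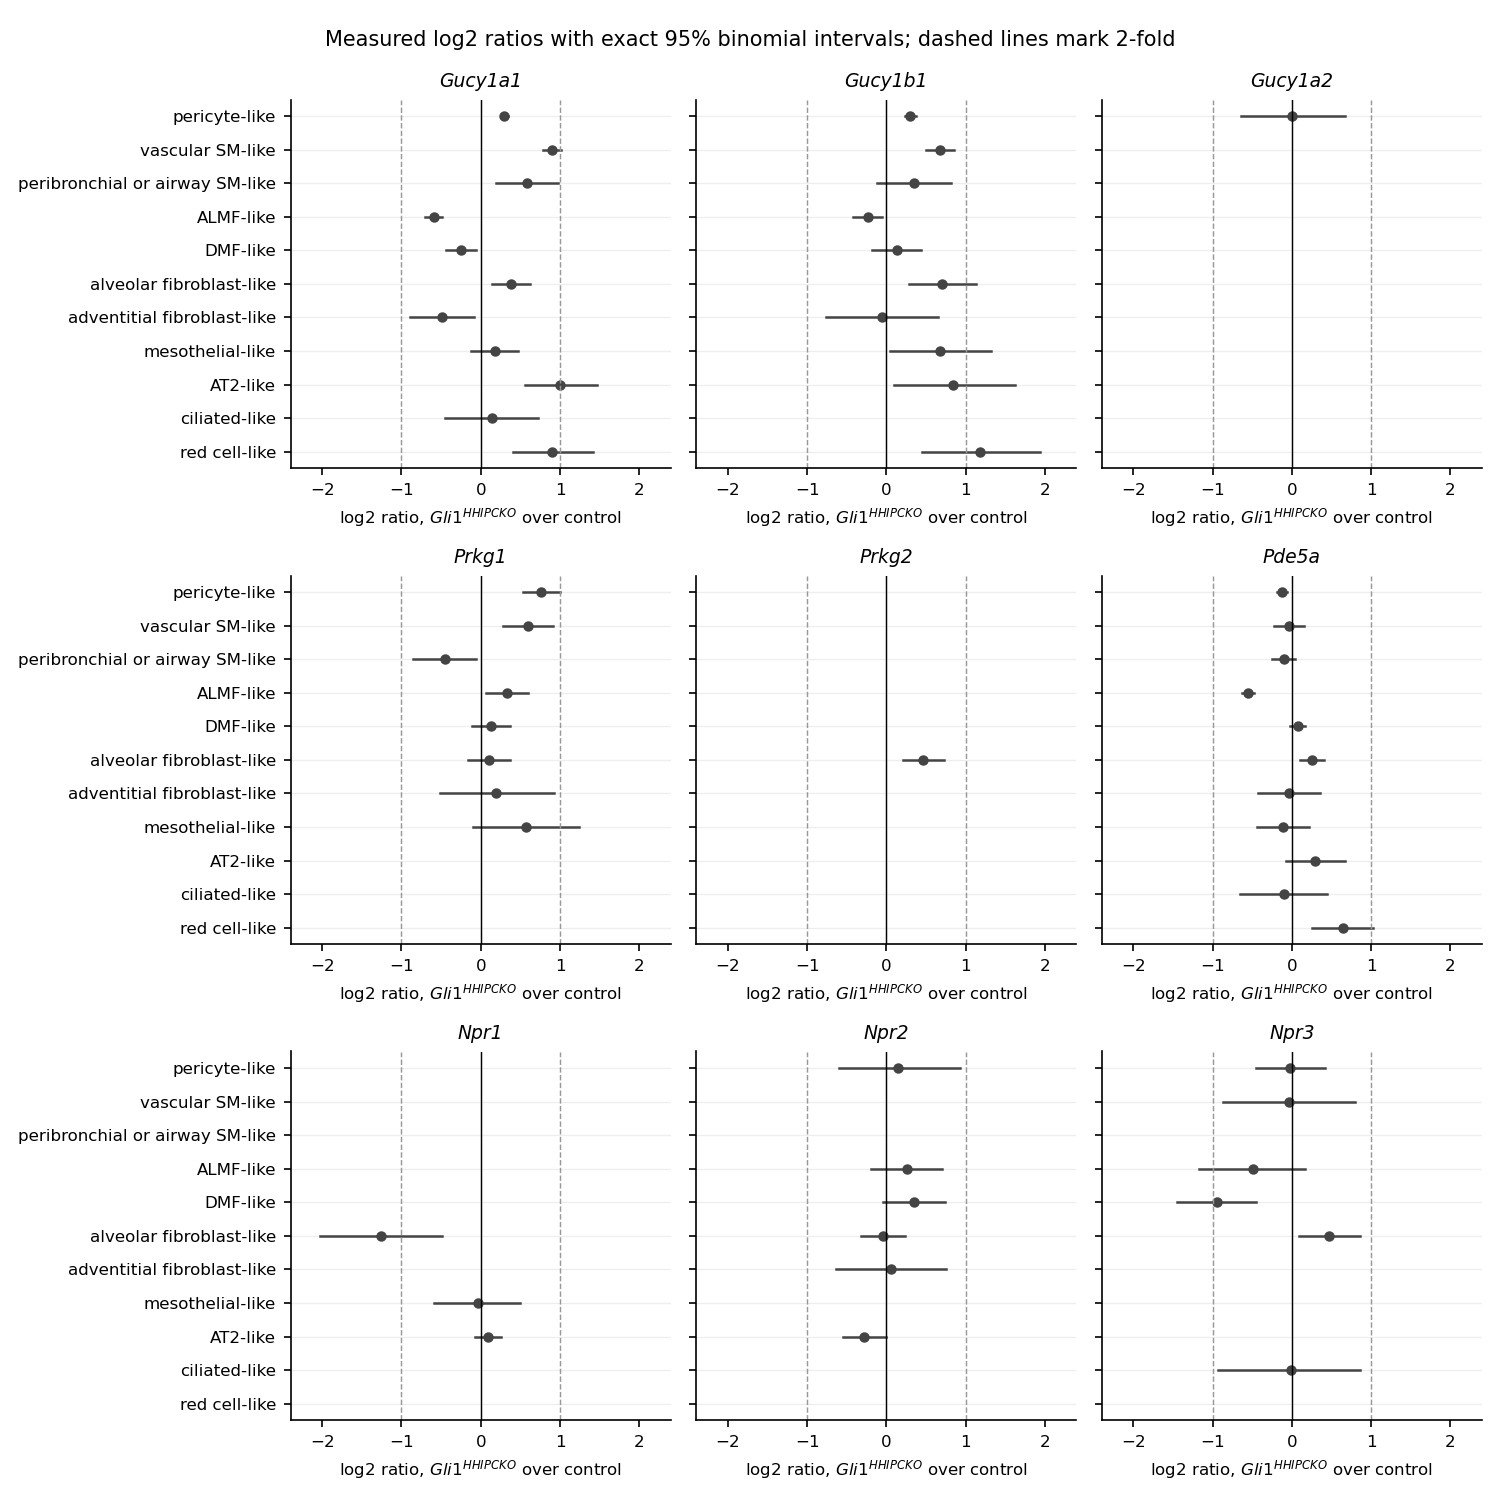
Log2 ratio of *Gli1 HHIPCKO* over control for each member in each class where it was measured, with exact binomial 95% intervals and lines at 0 and at 2-fold in both directions. In vascular smooth muscle-like cells *Gucy1a1*, *Gucy1b1* and *Prkg1* lie at 0.90, 0.67 and 0.59.

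Nearly every pericyte-like cell held cyclase RNA. In control and *Gli1 HHIPCKO*, a *Gucy1a1* UMI was found in 99.6% and 99.6% and a *Gucy1b1* UMI in 97.6% and 98.6% of the pericyte-like cells, at medians of 1793 and 1905 UMIs per cell. Red cell-like cells, given for comparison, had shares of 8.29% and 17.5% for *Gucy1a1* and 3.69% and 9.28% for *Gucy1b1*. Their medians were deeper, at 4998 and 5261.5 UMIs. The shares in AT2-like cells, 1.93% and 4.14% and 0.777% and 1.57%, at medians of 4828 and 5725 UMIs, were below those shares. Whether the red cell-like values are background RNA was not tested. That class also held 40505 and 54548 CPM of the 8 AT2 markers.

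In vascular smooth muscle-like cells, the shares with a *Gucy1a1* UMI were 75.2% and 83.3%, and with each cell thinned to 2000 UMIs they were 66.8% and 76.6%. For *Gucy1b1* they were 54.5% and 65.7%, and thinned 41.2% and 56.6%. More *Gli1 HHIPCKO* cells of this class thus held each subunit at equal depth. In ALMF-like cells the shares with *Gucy1a1* were 65.2% and 52% and thinned 54.7% and 43.3%. Thinned red cell-like cells had 4.35% and 9.39% for *Gucy1a1* and 2.90% and 3.31% for *Gucy1b1*.

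A *Pde5a* UMI was found in 96.3% and 96% of pericyte-like, 90.7% and 92.4% of peribronchial or airway smooth muscle-like and 89.9% and 81.9% of ALMF-like cells, beside 15.2% and 28.4% of red cell-like cells. The thinned share in ALMF-like cells was 84.9% and 75%, beside 8.70% and 12.7% in red cell-like cells. *Prkg1*, the kinase, was found in fewer cells: 30.1% and 48.4% of pericyte-like, 47% and 32.6% of peribronchial or airway smooth muscle-like and 28.5% and 36.8% of vascular smooth muscle-like cells, beside 4.61% and 7.73% of red cell-like cells. Thinning kept the 202 control and 368 *Gli1 HHIPCKO* pericyte-like cells with enough UMIs, and these had *Prkg1* in 30.2% and 46.2%.

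The sparser members were clear of the red cell-like values in their top class. *Prkg2* was found in 18.9% and 26.6% of alveolar fibroblast-like cells, beside 0.922% and 6.19% of red cell-like cells, and *Npr2* in 20.2% and 19.2%, beside 3.69% and 7.22%. *Npr1* was found in 19.4% and 16.6% of mesothelial-like and 16.2% and 20.5% of AT2-like cells, beside 2.76% and 4.12%. Its shares in alveolar fibroblast-like cells, 4.17% and 1.72%, reached the red cell-like share in control and not in *Gli1 HHIPCKO*. *Npr3* was found in 13.3% and 15.3% of pericyte-like and 7.01% and 4.32% of DMF-like cells, beside 0.922% and 4.12%, which the DMF-like share in *Gli1 HHIPCKO* barely passed, and *Gucy1a2* in 6.45% and 7.08% of pericyte-like cells, beside 0% and 0.515%. Alveolar fibroblast-like cells had medians of 3852 and 3766 UMIs, mesothelial-like cells 3564.5 and 2439, DMF-like cells 2492.5 and 2913, ALMF-like cells 3017 and 2909, vascular smooth muscle-like cells 2710.5 and 2659, and peribronchial or airway smooth muscle-like cells 3460 and 3181, all below those of red cell-like cells.

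**Figure D4:**
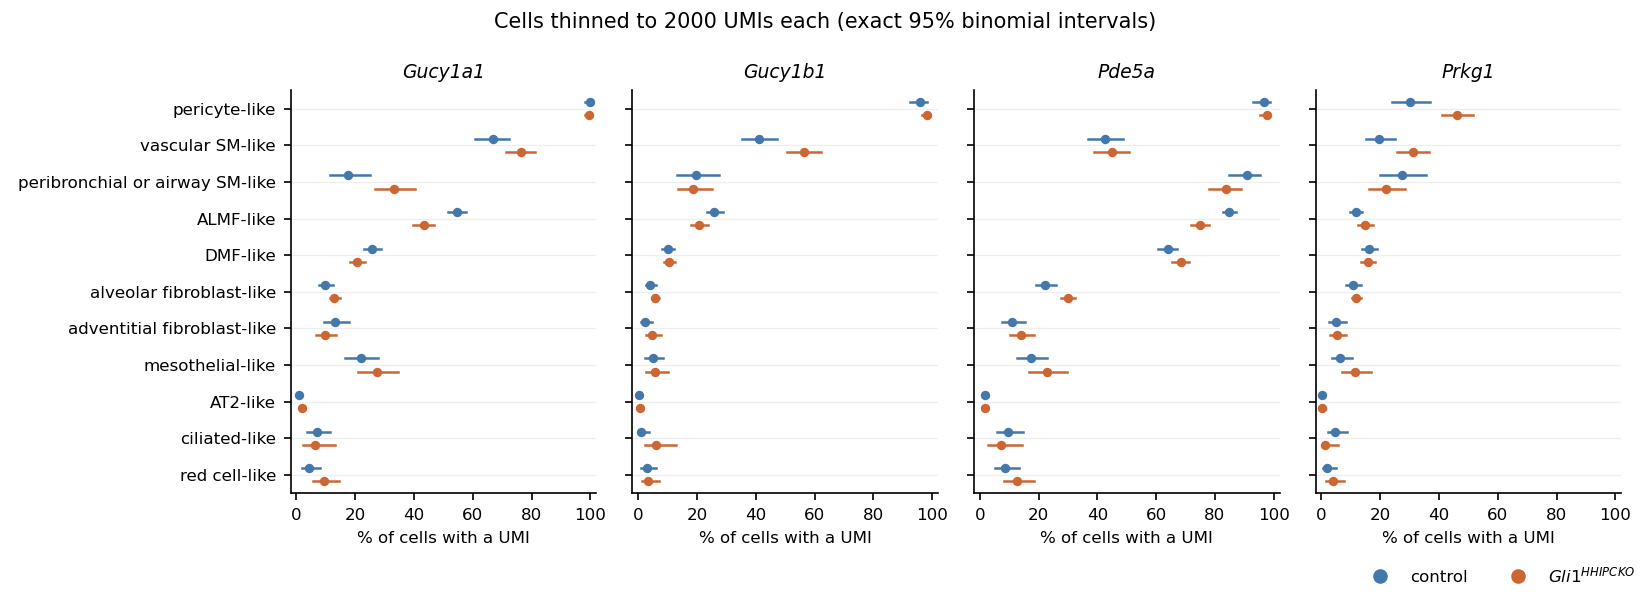
Share of cells with a UMI of *Gucy1a1*, *Gucy1b1*, *Pde5a* and *Prkg1*, in percent, after each cell was thinned to 2000 UMIs, by class and library, with exact 95% intervals. *Gucy1a1* was found in 100% and 99.5% of the pericyte-like cells of control and *Gli1 HHIPCKO*.

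An active cyclase needs an alpha and a beta subunit in 1 cell. UMIs of both *Gucy1a1* and *Gucy1b1* were found in 97.4% and 98.3% of pericyte-like cells in control and *Gli1 HHIPCKO*. In vascular smooth muscle-like cells they were found together in 44.1% and 60.3%, where the product of the single shares gives 41% and 54.7%. In ALMF-like cells the shares with both were 26.1% and 19.1%, where the product gives 22.3% and 13.9%, and in DMF-like cells 4.99% and 6.57%, where it gives 3.36% and 4.34%. With each cell thinned to 2000 UMIs the shares with both were 30.7% and 46.6% in vascular smooth muscle-like cells (product 27.5% and 43.3%), 17.3% and 11.6% in ALMF-like cells (product 14.2% and 8.99%) and 3.56% and 3.46% in DMF-like cells (product 2.60% and 2.18%), so the shares with both stayed above the product at equal depth. Red cell-like cells held both in 2.76% and 5.67%, where the product gives 0.306% and 1.63%. Thinned, they held both in 0.966% and 1.10% (product 0.126% and 0.311%), on 2 cells in each library. Shares above the product thus also occurred in red cell-like cells, and whether the UMIs there are background RNA was not tested. Of the vascular smooth muscle-like cells with *Gucy1b1*, 80.9% and 91.8% also held *Gucy1a1*, and of those of ALMF-like cells 76.5% and 71.4%. *Gucy1a1* and *Pde5a* were found together in 96.1% and 95.7% of pericyte-like, 42.1% and 47.9% of vascular smooth muscle-like and 60.0% and 45.6% of ALMF-like cells.

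Pericyte-like cells made up 4.26% of control cells and 6.64% of *Gli1 HHIPCKO* cells and held 45.2% and 59.5% of all *Gucy1a1* UMIs and 53.2% and 64.3% of all *Gucy1b1* UMIs. For *Pde5a* they held 20.3% and 30.1%, and ALMF-like cells held 29.7% and 13.1%. Over all cells of a library *Gucy1a1* was at 269 CPM in control against 386 CPM in *Gli1 HHIPCKO*, and the pericyte-like cells held the largest part of it in both libraries. Unnamed cells held 18.3% and 17.2% of the *Gucy1a1* UMIs. An unnamed cluster led by AT2 genes, 58 control and 106 *Gli1 HHIPCKO* cells, had 1684 and 1699 CPM of *Gucy1a1* and 854 and 888 CPM of *Gucy1b1*, and a small one led by *Serpina3n*, 20 and 30 cells, had 2033 and 2846 CPM and 1112 and 1525 CPM. These clusters were chosen for the text after their values were seen. The unnamed clusters led by immediate early genes, of 13 and 564 and of 394 and 18 cells, had 221 and 217 CPM of *Gucy1a1* in the former and 193 and 181 CPM in the latter, and 604 and 642 CPM of *Pde5a* in the former and 707 and 859 CPM in the latter.

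Around the members, 50 of 51 other genes of the pathway were in the files. Their ratios and calls were not recomputed under the alternatives, which were run for the members only. Of the pathway genes measured, 5 of 22 were called in ALMF-like cells, 1 of 18 in peribronchial or airway smooth muscle-like, 3 of 23 in vascular smooth muscle-like and 2 of 20 in pericyte-like cells, to be read against the backgrounds given above. Alveolar fibroblast-like cells had 3 of 23, adventitial fibroblast-like cells 0 of 15, mesothelial-like cells 1 of 15, AT2-like cells 0 of 18, ciliated-like cells 0 of 13 and red cell-like cells 3 of 11. The median log2 ratio of the list was 0.08 in ALMF-like, 0.27 in DMF-like and 0.13 in vascular smooth muscle-like cells. In pericyte-like cells it was −0.08 and in alveolar fibroblast-like cells 0.24. The medians of all measured genes in these classes were −0.02, 0.01, 0.04, 0.02 and 0.02. In red cell-like cells the list had 0.56, beside 0.62 for all measured genes. In the other compared classes its median ran from −0.01 to 0.14.

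The sources of the signal were nearly missing from these sorted cells. Of the ligands *Nppa*, *Nppb* and *Nppc* none was measured in a class, with 2 and 16 *Nppa* UMIs in peribronchial or airway smooth muscle-like cells as the largest counts. *Nos3*, the endothelial nitric oxide synthase, and *Nos1*, the neuronal one, were not measured either, and the sort removes endothelial cells. *Nos2*, the inducible synthase, was found in ciliated-like cells at 139 and 129.6 CPM, log2 ratio −0.10 (−0.50 to 0.30), and had no UMI in the other 10 compared classes. *Gch1*, the entry enzyme of the synthesis of tetrahydrobiopterin, which synthases need, was at 57.3 and 69.5 CPM in ciliated-like cells, which is the level of red cell-like cells (55.3 and 62.4 CPM). None of the other guanylyl cyclases *Gucy1b2*, *Gucy2c*, *Gucy2e*, *Gucy2f* and *Gucy2g* was measured.

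*Nostrin*, which traffics endothelial nitric oxide synthase, was highest in pericyte-like cells, at 558 and 601 CPM, log2 ratio 0.11 (−0.04 to 0.26). It was called lower in *Gli1 HHIPCKO* in ALMF-like cells (34.4 and 13.2 CPM, log2 ratio −1.39 (−1.95 to −0.85)) and in alveolar fibroblast-like cells (46.2 and 22.6 CPM, −1.04 (−1.38 to −0.68)) and higher in vascular smooth muscle-like cells (12.4 and 28.1 CPM, 1.17 (0.27 to 2.15)). The pericyte markers, higher in *Gli1 HHIPCKO* vascular smooth muscle-like cells, moved with the latter value, and their part in it was not tested. *Ddah2*, which breaks down an inhibitor of the synthases, was called in no class.

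Among the other phosphodiesterases that split cGMP, *Pde1a*, which calcium and calmodulin activate, was called higher in *Gli1 HHIPCKO* in 3 classes. In ALMF-like cells it was at 18.4 CPM in control against 62.7 CPM in *Gli1 HHIPCKO*, log2 ratio 1.77 (1.36 to 2.19). DMF-like cells had 71.1 and 153 CPM, log2 ratio 1.10 (0.87 to 1.34), and vascular smooth muscle-like cells 17.4 and 41.3 CPM, log2 ratio 1.25 (0.49 to 2.05). The DMF markers, higher in *Gli1 HHIPCKO* ALMF-like cells, moved with the ALMF-like value. In DMF-like cells the 10 airway markers summed to 651 and 1184 CPM, with 1 and 7 in at least 10% of the cells. In vascular smooth muscle-like cells the airway markers summed to 7208 and 4731 CPM and the DMF markers to 2233 and 2076 CPM. The part of these markers in the results was not tested. Peribronchial or airway smooth muscle-like cells, with the most *Pde1a*, had 111 and 184 CPM, log2 ratio 0.73 (0.30 to 1.17). *Pde9a*, a cGMP-specific enzyme, was at 1.58 and 30.3 CPM in ALMF-like cells, on 6 and 85 UMIs, log2 ratio 4.26 (3.08 to 5.75). In control it was highest in alveolar fibroblast-like (29.6 CPM) and adventitial fibroblast-like cells (24.9 CPM), and in ALMF-like cells the 11 alveolar fibroblast markers summed to 319 and 1676 CPM and the 10 adventitial fibroblast markers to 109 and 317 CPM, with 2 and 5 and with 0 and 1 of them in at least 10% of the cells, none at 0 and *Mfap4* and *Mfap5* the most abundant. Their part in the result was not tested. *Pde3b* was called higher in alveolar fibroblast-like cells, at 6.82 and 13.6 CPM. *Pde3a*, which cGMP inhibits, was highest in vascular smooth muscle-like (303 and 332 CPM) and pericyte-like cells (274 and 279 CPM) and was called in no class.

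Of the targets and partners of cGMP-dependent kinase, *Rgs2*, which the kinase activates to damp contractile G protein signals, was called higher in *Gli1 HHIPCKO* in ALMF-like (254 and 546 CPM, log2 ratio 1.11 (0.99 to 1.23)), peribronchial or airway smooth muscle-like (421 and 892 CPM, 1.08 (0.87 to 1.30)) and pericyte-like cells (51.7 and 116 CPM, 1.16 (0.71 to 1.64)). It was also called in red cell-like cells, at 25.1 and 91.9 CPM. Marker sums differed between the libraries in the ALMF-like, airway and pericyte-like classes too, as given above, and their part in these ratios was not tested. *Trpc6*, a cation channel that the kinase inhibits, was highest in pericyte-like cells at 858 and 829.6 CPM and called higher in ALMF-like cells at 10.2 and 21.4 CPM. *Ppp1r14a*, an inhibitor of myosin phosphatase, was highest in pericyte-like cells at 785 and 862 CPM, and *Vasp*, a substrate of the kinase at the actin cytoskeleton, at 282 and 239.9 CPM there. *Mrvi1*, the kinase's partner at the calcium store, was highest in peribronchial or airway smooth muscle-like cells at 196 and 134 CPM, log2 ratio −0.55 (−0.95 to −0.15), and *Ppp1r12b*, a subunit of myosin phosphatase, was at 337 and 229 CPM there. Of these targets, *Rgs2*, *Mrvi1* and *Ppp1r12b* thus stood highest in the airway class and *Trpc6*, *Ppp1r14a* and *Vasp* in the pericyte-like class. *Ppp1r12b* was called lower in *Gli1 HHIPCKO* mesothelial-like cells, on 47 and 12 UMIs, and *Hspb6* higher in alveolar fibroblast-like cells, on 9 and 64.

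*Hcn2*, a channel that cyclic nucleotides gate, was at 75.9 and 30.3 CPM in pericyte-like cells, log2 ratio −1.32 (−1.86 to −0.79). *Abcc4* and *Abcc5*, which export cyclic nucleotides, were called in no class. Of the enzymes that process natriuretic peptides, *Corin*, which activates the atrial peptide, was called higher in vascular smooth muscle-like cells, on 11 and 44 UMIs, and *Mme*, which degrades these peptides, was highest in alveolar fibroblast-like cells at 123 and 204 CPM, log2 ratio 0.73 (0.56 to 0.91). The class with the most *Npr2* and *Prkg2* was thus also that with the most *Mme*.

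Genes outside the members were compared with members over 24 sums of a class and library with at least 50 cells. Among 8003 candidates, those closest to *Gucy1a1* in log2 level were *Itga1* (Pearson r 0.96), *Ehd3* (0.941) and *Pdgfrb* (0.931). For *Gucy1b1* they were *Itga1* (0.975), the pericyte marker *Cspg4* (0.959) and *Fam104a* (0.931). The subunits thus shared their closest gene outside the members, an integrin subunit that was highest in control pericyte-like cells, at 2486 CPM. For *Prkg1* the closest were *Plcb1* (0.949), *Itgb1* (0.944) and *Cald1* (0.941), and for *Pde5a* *Arhgap42* (0.979), *Ltbp2* (0.929) and *Plcb1* (0.926). *Ltbp2* is on the ALMF marker list but was highest in control pericyte-like cells, at 2945 CPM. *Npr1* was closest to *Pqlc1* (0.932), *Dpp4* (0.909) and *Shtn1* (0.902), *Npr2* to *Acadsb* (0.853), *Picalm* (0.841) and *Cd164* (0.839), and *Npr3* to *Prkar1b* (0.891), *Tbc1d1* (0.863) and *Tacc1* (0.861). The sums of 1 library share its depth and background RNA, and the coefficients are a description. *Gucy1a2* and *Prkg2*, measured in 1 class each, were not compared in this way.

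*Gucy1a1* and *Gucy1b1*, which had the same top classes and the same sign of difference in pericyte-like and vascular smooth muscle-like cells, lie side by side on the minus strand of chromosome 3, 17737 bp apart in the GENCODE annotation of GRCm38. *Pde5a* and *Npr1* are on chromosome 3 as well, and the other 5 members are on chromosomes 4, 5, 9, 15 and 19. Promoter windows of 300 bases, from RefSeq on GRCm38.p6, were found for 8 of the 9 members, 10 windows in all. They were searched on both strands for a GC box (GGGCGG, in 35.7% of 32851 promoters), the RBPJ motif (TGGGAA, in 25.6%), a TATA box (TATAAA, in 13.6%, which can lie inside a CArG box) and a CArG box (in 1.63%). No window of a member held a TATA box or a CArG box, which says only that these letters are not in the windows. The windows of the subunits and of *Pde5a*, the members highest in pericyte-like cells on this chromosome, are printed on the strand of the gene, with matches in capitals. The outer *Gucy1a1* window (chr3:82145601-82145900) holds 1 GC box, the inner one (chr3:82145024-82145323) 4 matches of TGGGAA or its reverse complement TTCCCA, the *Gucy1b1* window (chr3:82074662-82074961) 1 GC box and 1 RBPJ motif, and the *Pde5a* window (chr3:122728908-122729207, plus strand) the same. A match is a description of the sequence and shows no binding.
Gucy1a1 outer window: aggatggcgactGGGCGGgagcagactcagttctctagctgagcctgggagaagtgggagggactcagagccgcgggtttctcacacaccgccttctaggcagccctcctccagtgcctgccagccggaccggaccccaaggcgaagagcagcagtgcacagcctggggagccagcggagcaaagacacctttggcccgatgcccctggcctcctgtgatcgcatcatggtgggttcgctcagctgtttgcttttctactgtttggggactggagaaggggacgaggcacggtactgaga
Gucy1a1 inner window: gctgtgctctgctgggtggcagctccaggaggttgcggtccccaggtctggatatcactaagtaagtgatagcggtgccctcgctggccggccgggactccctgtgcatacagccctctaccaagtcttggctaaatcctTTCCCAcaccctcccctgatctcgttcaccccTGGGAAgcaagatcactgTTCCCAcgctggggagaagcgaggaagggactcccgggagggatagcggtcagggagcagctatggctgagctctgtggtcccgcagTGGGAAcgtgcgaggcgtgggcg
Gucy1b1 window: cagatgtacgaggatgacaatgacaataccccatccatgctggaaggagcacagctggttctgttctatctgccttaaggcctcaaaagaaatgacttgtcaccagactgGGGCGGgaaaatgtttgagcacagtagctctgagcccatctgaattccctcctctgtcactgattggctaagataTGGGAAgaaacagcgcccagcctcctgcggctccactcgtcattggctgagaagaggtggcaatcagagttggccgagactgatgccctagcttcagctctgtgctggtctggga
Pde5a window: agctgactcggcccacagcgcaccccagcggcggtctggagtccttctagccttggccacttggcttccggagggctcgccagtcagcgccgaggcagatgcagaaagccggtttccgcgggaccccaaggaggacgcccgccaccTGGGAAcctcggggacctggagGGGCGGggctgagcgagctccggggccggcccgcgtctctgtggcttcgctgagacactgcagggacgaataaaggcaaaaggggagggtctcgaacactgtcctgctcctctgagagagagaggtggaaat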

How the data were processed

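Droplet libraries of lung cells from 1 control and 1 *Gli1 HHIPCKO* mouse were used. The values are counts of UMIs per gene and cell, deposited by the authors after Cell Ranger on mm10. The file header gives version 6.1.0 and the processing notes 3.1.0, and the labels name a 5′ kit in 1 place and a 3′ kit in another. Kept cells had 200 to 6000 genes and no more than 10% of UMIs from mitochondrial genes. Both libraries were log-normalized and clustered together without integration (scanpy 1.11.5, leidenalg 0.10.2; 2000 variable genes, 30 components, 20 neighbours, resolution 1), with the members, the pathway genes, *Hhip* and sex-linked genes held out. Clusters were named by 18 marker lists, several of them largely from the markers that the study drew from these libraries. The thresholds of naming were set after the clusters were seen and revised after the members' values by class were seen. The members and lists were chosen with earlier results of these data known. The genes named were the members, their pathway genes, *Hhip*, *Xist*, the markers and 3 genes for each member measured in at least 3 classes. These 3 were the genes outside the members most correlated with that member (log2 of CPM plus 10). UMIs were summed per class and library and scaled to counts-per-million (CPM), with exact Poisson intervals for levels, and exact binomial intervals for ratios and shares (scipy 1.17.1). A class needed 50 cells in each library. A count of 0 is given the limit that 3 UMIs allow. Alternatives changed the filter, doublets, clustering, naming, scaling, averaging, depth, the UMI minimum and the fold.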

Additional observations from a re-analysis of the deposited data

How the results depend on the processing

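The numbers of members at least 2-fold apart were recomputed under 12 alternatives, and the 57 log2 ratios and the class with the highest level under those that bear on them. Holding immediate early genes out of clustering and naming every cluster by its best score were chosen after seeing the data. In peribronchial or airway smooth muscle-like and adventitial fibroblast-like cells the number was 0 under each of the 12 alternatives. For the others, the cause of each difference below was not tested.

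With a 1.5-fold limit, the number was 1 in ALMF-like, DMF-like, pericyte-like and mesothelial-like cells, 2 in alveolar fibroblast-like and AT2-like cells, and 3 in vascular smooth muscle-like (*Gucy1a1*, *Gucy1b1*, *Prkg1*) and red cell-like cells. With a minimum of 20 UMIs it was 1 in DMF-like (*Npr1*), vascular smooth muscle-like (*Gucy1a2*) and ciliated-like cells (*Prkg1*), since more members were then measured. With the libraries clustered separately it was 1 in DMF-like (*Npr3*), 4 in AT2-like and 0 in red cell-like cells. With immediate early genes held out it was 1 in DMF-like (*Npr3*) and vascular smooth muscle-like cells (*Gucy1a1*) and 0 in alveolar fibroblast-like and AT2-like cells. Thinned to 2000 UMIs per cell it was 1 in vascular smooth muscle-like cells (*Gucy1a1*) and 0 in alveolar fibroblast-like and red cell-like cells. Under the stricter filter it was 0 in alveolar fibroblast-like, AT2-like and red cell-like cells, and with members and pathway genes kept in clustering 0 in alveolar fibroblast-like and AT2-like cells. At resolution 0.5 it was 0 in alveolar fibroblast-like and 2 in red cell-like cells, and with naming by best score 0 and 3. Without likely doublets it was 2 in AT2-like, 1 in ciliated-like and 2 in red cell-like cells. As a mean over cells it was 1 in ciliated-like and 2 in red cell-like cells, and with median-of-ratios scaling 0 in red cell-like cells.

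Of 570 recomputed log2 ratios, 489 lay within the counting interval of the reported value and 81 did not. The sign differed in 64, none of them among the called ratios. In pericyte-like cells the log2 ratio of *Gucy1a1* ran from 0.27 to 0.36 and that of *Pde5a* from −0.15 to −0.06. In ALMF-like cells that of *Gucy1b1* ran from −0.32 to 0.31. Pericyte-like cells kept the highest level of *Gucy1a1*, *Gucy1b1*, *Gucy1a2*, *Pde5a* and *Npr3* in both libraries under each alternative that recomputed it, and of *Prkg1* under each but the mean over cells, where control had 5 such members. Depth limits the sparse members: *Gucy1a2* and *Prkg2* were measured in 1 class each.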
